A study of Mus musculus with 6 samples.

Results

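Siglecs are cell surface lectins that bind sialic acid, and 6 of their genes were examined in chronic stroke infarcts: *Siglec1*, *Cd33*, *Siglecg*, *Siglece*, *Siglecf*, and *Siglec15*. These 6 were listed by name among the 9 mouse Siglec genes and the 46078 genes of the count tables. They were chosen by their counts and fold changes between infarct and contralateral cortex, which were already known, so that difference is described here without a test. Bulk RNA-Seq libraries were made from 3 infarcts and from 3 contralateral cortices. All tissue came from male wild type C57BL/6J mice, recorded as 3 months old, at 7 weeks after a stroke made by permanent occlusion of the middle cerebral artery followed by hypoxia. The contralateral cortex is the matching region of the opposite, non-occluded hemisphere of mice that had this surgery, not of unoperated animals. The records number the libraries 1, 2 and 3 within each region but do not state which infarct and which contralateral cortex shared a mouse, and no record says more of how separate the samples were, so that *p* values measure only the spread between these samples.

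Sialic acids cap the sugar chains of most mammalian cell surface proteins and lipids, and Siglecs on immune cells read these caps. Most receptors of the CD33-related branch carry inhibitory tyrosine motifs (ITIMs) in their cytoplasmic tails. Phosphorylated ITIMs recruit the phosphatases SHP-1 and SHP-2, which dampen signals from activating receptors. Others, such as Siglec-15 and Siglec-H, lack ITIMs and signal by pairing with the adaptor DAP12. Sialoadhesin, the product of *Siglec1*, has neither and serves as an adhesion and capture receptor of macrophages. In the brain, Siglecs are known mainly from microglia, border macrophages, and, as myelin-associated glycoprotein, from oligodendrocytes.

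*Cd33*, *Siglecg*, *Siglece*, and *Siglecf* lie together on chromosome 7, and the sequences just before the starts of these 4 genes are shown because the genes share a location and are known from myeloid or B cells, where the factor PU.1 is known to bind a core of the letters GAGGAA. Each sequence holds the 250 bases before the start that RefSeq lists on GRCm38.p6, 5′ to 3′ on the strand of the gene. Capitals mark GAGGAA on either strand, written as TTCCTC where it lies on the other strand.
Siglece: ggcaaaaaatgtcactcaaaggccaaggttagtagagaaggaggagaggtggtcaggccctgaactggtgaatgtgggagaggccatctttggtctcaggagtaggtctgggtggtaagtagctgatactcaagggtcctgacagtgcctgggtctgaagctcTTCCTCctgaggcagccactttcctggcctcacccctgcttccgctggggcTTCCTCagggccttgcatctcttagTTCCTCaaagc
Siglecf: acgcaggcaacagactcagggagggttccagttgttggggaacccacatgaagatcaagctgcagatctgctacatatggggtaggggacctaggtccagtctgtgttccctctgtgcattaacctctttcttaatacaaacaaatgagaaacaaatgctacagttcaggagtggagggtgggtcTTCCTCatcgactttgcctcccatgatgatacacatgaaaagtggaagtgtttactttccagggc
Siglecg: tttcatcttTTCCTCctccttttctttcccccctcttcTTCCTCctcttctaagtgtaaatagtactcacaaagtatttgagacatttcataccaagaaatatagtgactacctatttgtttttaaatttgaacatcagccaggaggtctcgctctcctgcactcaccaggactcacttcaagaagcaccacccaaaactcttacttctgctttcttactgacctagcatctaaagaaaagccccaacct
Cd33: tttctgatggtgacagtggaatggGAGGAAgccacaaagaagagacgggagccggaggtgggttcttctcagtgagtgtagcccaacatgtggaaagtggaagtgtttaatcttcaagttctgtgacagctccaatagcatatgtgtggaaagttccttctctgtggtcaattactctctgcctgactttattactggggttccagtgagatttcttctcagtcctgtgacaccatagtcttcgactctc
The windows are chr7:43660162-43660411 on the minus strand for *Siglece*, chr7:43351091-43351340 on the plus strand for *Siglecf*, chr7:43407989-43408238 on the plus strand for *Siglecg*, before the first of its 2 listed starts, and chr7:43533172-43533421 on the minus strand for *Cd33*. For *Cd33* the whole window, and for *Siglecg* the end of it, lies inside the span given for the gene below, since the RefSeq starts differ from those spans. *Siglece* held 3 matches, the nearest of them 6 bases before the start. *Siglecg* held 2, and *Siglecf* and *Cd33* held 1 each. Among 32536 such windows of the genome, 23.4% hold GAGGAA on either strand. These are matches of letters and not measured binding sites. *Siglec1* and *Siglec15* had no entry.

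The 6 genes differed in sequence. Aligned longest coding sequences were 57.3% identical for *Siglece* and *Siglec15*, the least alike pair, and 64.9% for *Siglecf* and *Cd33*, the most alike. Runs of 75 bases, the read length, were shared with another annotated gene by 0 of the 6313 runs of *Siglec1*, and likewise by 0 runs of *Siglece*, *Siglecf*, *Cd33*, and *Siglec15*. In *Siglecg*, 146 of 2495 runs (5.85%) also occurred in the pseudogene *Gm29791*. The merged exons of all 6 genes overlapped 0.0% with exons of other genes on either strand.

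Counts on genes totaled 12146959 to 13427057 in infarcts and 11943570 to 19933962 in contralateral cortices. Values are given as raw counts and as CPM, counts scaled to a common library size by the TMM method, with the mean ± SD of 3 libraries. Of 15554 genes that passed a filter on low counts, 3999 (25.7%) were called higher in infarcts, at an adjusted *p* under 0.05 in edgeR's quasi-likelihood test and a fold change over 2, 3256 (20.9%) were called lower, and 46.6% were called in either direction. Of the 6 Siglec genes, 5 passed the filter and those 5 were called higher in infarcts, a count that the choice of genes had fixed in advance and that carries no further weight. All 3 infarct values lay above all 3 contralateral values for each of the 6 genes, a pattern found in 37.6% of all tested genes. The tissue matched its labels, in that 8 of 8 neuron markers fell in infarcts, where their summed level was 697 to 2035 CPM against 10006 to 11088 CPM in contralateral cortices.

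*Siglec1*, on chromosome 2 at 131069220 to 131086765 on the minus strand of GRCm38 (ENSMUSG00000027322), encodes sialoadhesin, a long receptor that holds sialylated particles and cells at the macrophage surface. It gave 2022, 2087, and 2232 counts in infarcts 1, 2, and 3 against 15, 10, and 10 in contralateral cortices 1, 2, and 3. The infarct libraries were all high and close together, with a coefficient of variation of 3.08%, and the contralateral libraries were all near the bottom of the range. On the CPM scale the means were 156 ± 4.79 in infarcts and 0.786 ± 0.136 in contralateral cortices, and the log2 fold change was 7.63 with an SE of 0.19. *Siglec1* therefore made up most reads of the 6 genes in infarcts and few in contralateral cortices. Its share of their summed counts was 76.6% to 76.9% across infarcts and 5.30% to 6.99% across contralateral cortices.

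*Cd33*, on chromosome 7 at 43524216 to 43544428 on the minus strand (ENSMUSG00000004609), names the CD33-related branch, and in the mouse its tail differs from that of the human receptor. It gave 483, 479, and 519 counts in the infarct libraries 1 to 3 and 259, 160, and 121 in the contralateral libraries 1 to 3. Scaled levels were 38.5, 35.2, and 35.4 CPM in infarcts against 13.5, 10.4, and 11.2 CPM in contralateral cortices, so that the groups stood apart with little spread inside either. Here the contralateral cortex was well above 0, and the difference was the smallest of the 5 fitted genes, with a log2 fold change of 1.63 and an SE of 0.17. *Cd33* held 84.6% to 91.5% of the summed counts of the 6 genes in contralateral cortices and 17.6% to 18.4% in infarcts.

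*Siglecg*, on chromosome 7 at 43408204 to 43418358 on the plus strand (ENSMUSG00000030468), encodes an ITIM receptor known from B cells, where it restrains antigen receptor signals, and it binds the sialylated protein CD24. It gave 49, 87, and 68 counts in infarcts 1 to 3 and 0 counts in each of the 3 contralateral cortices. Infarct 2 was highest and infarct 1 lowest. Infarcts averaged 4.98 ± 1.28 CPM, which is at least 23.7-fold higher than a level of 3 counts in each contralateral library, the limit that a count of 0 allows. Leaving out 1 library at a time gave bounds of 20.4 to 28.3. Such limits and the intervals given for ratios cover counting error only.

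*Siglece*, on chromosome 7 at 43651070 to 43660161 on the minus strand (ENSMUSG00000030474), encodes an ITIM receptor of neutrophils, monocytes, and macrophages. It gave 48, 25, and 49 counts in the infarct libraries 1 to 3 and 6, 7, and 6 in the contralateral libraries 1 to 3. Infarct 2 was the lowest of the infarcts but stayed above each contralateral library. Means were 3.00 ± 1.04 CPM in infarcts and 0.441 ± 0.121 CPM in the contralateral libraries, and the log2 fold change was 2.79 with an SE of 0.46.

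*Siglecf*, on chromosome 7 at 43351341 to 43359531 on the plus strand (ENSMUSG00000039013), encodes the ITIM receptor used to mark eosinophils and alveolar macrophages. It gave 27, 44, and 33 counts in the infarct libraries 1 to 3 and 3, 1, and 6 in the contralateral libraries 1 to 3. Every infarct was above every contralateral cortex, but the contralateral counts were few and varied among themselves as much as their mean, at 0.259 ± 0.260 CPM against 2.54 ± 0.597 CPM in infarcts. The log2 fold change was 3.42 with an SE of 0.60. It was 4.37 without contralateral library 3, which held 6 of the 10 contralateral reads, and 2.95 without contralateral library 2.

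*Siglec15*, on chromosome 18 at 78043614 to 78057395 on the minus strand (ENSMUSG00000091055), encodes a DAP12-coupled receptor known from osteoclasts and some macrophages. It gave 1, 1, and 5 counts in infarcts 1 to 3 and 0 counts in each contralateral cortex. It did not pass the filter on low counts, and at 0.165 ± 0.153 CPM in infarcts its level was within what 3 counts in a contralateral library would give (0.157 to 0.277 CPM), so no fold change is given.

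**Figure D1:**
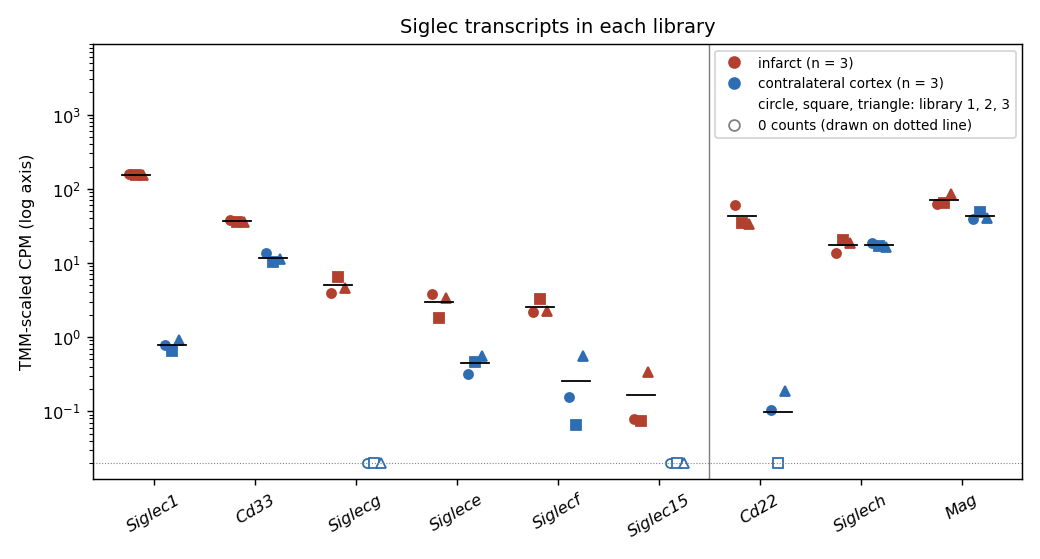
TMM-scaled CPM on a log axis of the 6 Siglec genes (left of the grey line) and the 3 other mouse Siglec genes (right) in each infarct (red, n = 3) and contralateral cortex (blue, n = 3). Circles, squares and triangles are libraries 1, 2 and 3, black bars are means, and open symbols on the dotted line are libraries with 0 counts; *Siglec1* stands at 156 CPM in infarcts against 0.786 CPM in contralateral tissue, whereas *Siglech* overlaps between regions.

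The 6 genes also differed in level, which can be compared between genes only per length. Per kilobase of merged exons, infarct levels were 21.8 ± 0.671 CPM for *Siglec1*, 4.68 ± 0.236 for *Cd33*, 1.62 ± 0.561 for *Siglece*, 1.04 ± 0.266 for *Siglecg*, 0.912 ± 0.214 for *Siglecf*, and 0.143 ± 0.132 for *Siglec15*. *Siglec1* and *Cd33* stood clear of their neighbors in this order, and so did *Siglec15* at the bottom. The ranges of *Siglece*, *Siglecg*, and *Siglecf* overlapped, and these 3 cannot be ordered per kilobase of merged exons. Contralateral levels per kilobase began with *Cd33* at 1.51 ± 0.209 CPM, then *Siglece* at 0.238 ± 0.0654, *Siglec1* at 0.110 ± 0.0190, and *Siglecf* at 0.0927 ± 0.0931, with *Siglecg* and *Siglec15* at 0, and there the range of *Siglecf* overlapped those of *Siglec1* and of *Siglece*. *Siglec1* thus moved from behind *Cd33* and *Siglece* in contralateral cortices to the top in infarcts. The distance between the leading pair depends on the length used, because the merged exons of *Cd33* span 7771 bases and its median coding transcript 1876.5 bases. Per kilobase of median coding transcript, a length chosen after the gene models were seen, infarct levels were 26.9 ± 0.828 CPM for *Siglec1* and 19.4 ± 0.979 CPM for *Cd33*, and the order of the 6 means in infarcts was the same. On that length *Siglecf* (0.923 to 1.39 CPM) lay below *Siglecg* (1.52 to 2.49) and *Siglece* (1.44 to 3.01), whose ranges still overlapped.

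**Figure D2:**
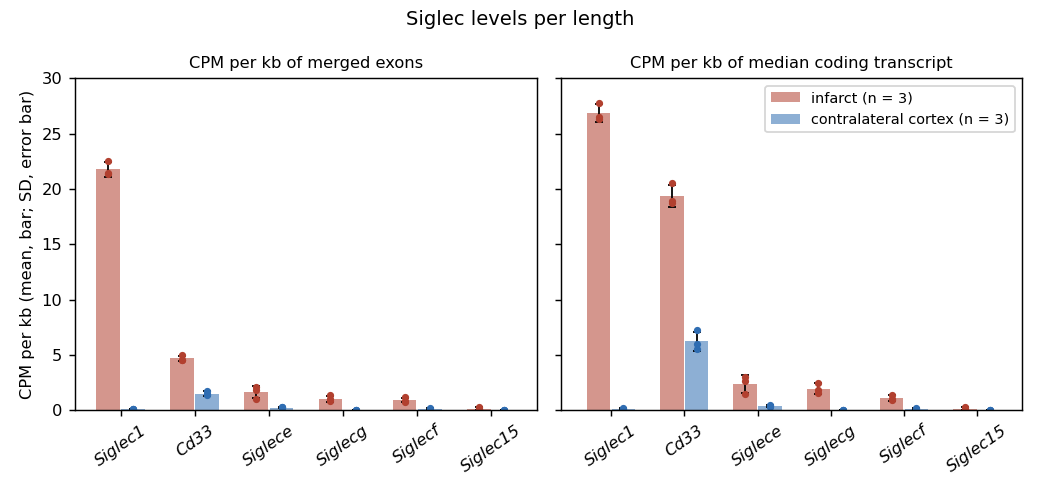
Levels of the 6 Siglec genes as CPM per kilobase of merged exons (left) and of the median coding transcript (right). Bars are means, error bars SD and points the libraries of infarcts (red, n = 3) and contralateral cortices (blue, n = 3); *Siglec1* and *Cd33* lead in infarcts under both lengths, at 21.8 and 4.68 CPM on the left and 26.9 and 19.4 CPM on the right.

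Reads in bulk tissue cannot tell more cells of a type from more RNA per cell. Macrophage and microglia markers moved with the Siglec genes: 8 of 8 (*Ptprc*, *Csf1r*, *Cd68*, *Aif1*, *Itgam*, *Adgre1*, *Fcgr1*, and *Lyz2*) rose in infarcts, against 25.7% of all tested genes. Their median log2 fold change was 4.83 against 0.03 over all tested genes. *Ptprc* is known from other leukocytes as well, and their part in its level was not tested. The summed level of the 8 markers was 5915 to 9572 CPM in infarcts against 158 to 213 CPM in contralateral tissue. The Siglec levels were therefore also set against these markers, as CPM per 1000 CPM of markers. *Lyz2*, the lysozyme of macrophages, supplied 78.9% to 84.0% of the summed level in infarcts and 8.67% to 11.0% in contralateral cortices, and it was left out of the values that follow, a choice made after seeing the data.

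Against the other 7 markers the Siglec genes moved in different directions. *Siglec1* gave 93.7, 117, and 122 per 1000 in infarcts 1 to 3 and 4.62, 4.50, and 4.86 in contralateral cortices 1 to 3, so its mean ratio to the markers was 23.8-fold higher in infarcts. *Cd33* went the other way, with 22.4, 26.9, and 28.3 per 1000 in infarcts and 79.8, 72.0, and 58.8 in contralateral cortices. On this scale it was 2.71-fold higher in the latter, without overlap. The mix of the 7 markers differed between regions, however. *Csf1r* supplied 97.7 to 139 of their 145 to 190 CPM in contralateral cortices, and 405 to 538 of 1250 to 1719 CPM in infarcts. *Csf1r* rose by 1.96 on the log2 scale, *Cd33* by 1.63, and *Ptprc* by 5.81. How far the ratios to the 7 markers follow this mix was not tested. *Siglece* gave 2.22, 1.41, and 2.68 per 1000 in infarcts and 1.85, 3.15, and 2.91 in contralateral cortices, and the regions overlapped. *Siglecf* overlapped too, at 1.25, 2.47, and 1.80 per 1000 in infarcts against 0.924, 0.450, and 2.91 in contralateral cortices. *Siglecg* stood at 3.63 ± 1.31 per 1000 in infarcts and at 0 in contralateral cortices. With *Lyz2* in the sum, the ratio of *Siglec1* was 20.5 ± 4.68 per 1000 in infarcts and 4.2 ± 0.110 in contralateral cortices, 4.87-fold higher in infarcts. That of *Cd33* was then 13.3-fold higher in contralateral cortices, and that of *Siglece* no longer overlapped, at 0.397 ± 0.170 in infarcts and 2.38 ± 0.632 in contralateral cortices. *Siglecf* did not overlap on that scale either, at 0.225, 0.397, and 0.381 per 1000 in infarcts against 0.834, 0.411, and 2.59 in contralateral cortices, 3.83-fold higher in the latter. An exact permutation test of 3 against 3 libraries cannot give a *p* under 0.1 and was not run.

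**Figure D3:**
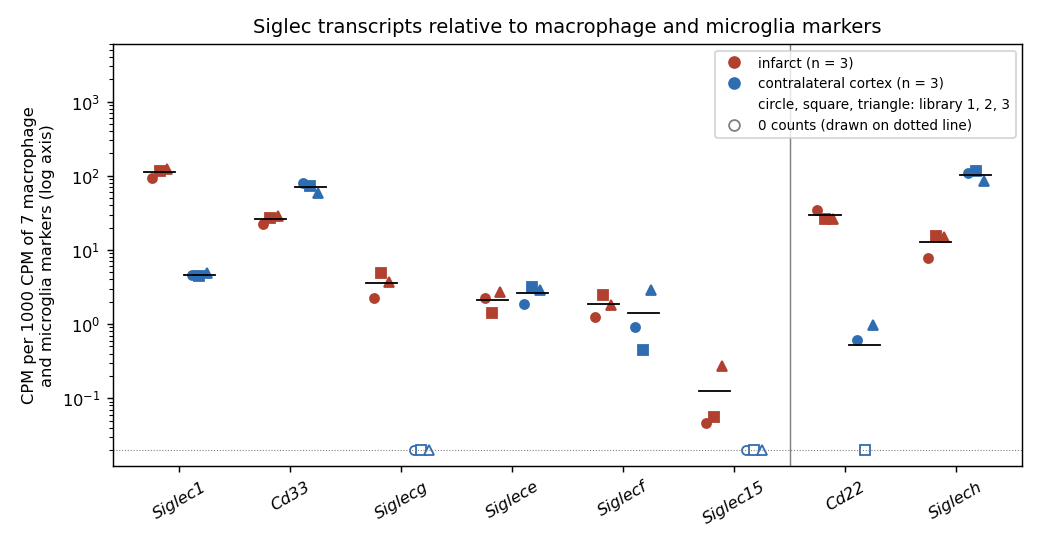
Siglec levels per 1000 CPM of 7 macrophage and microglia markers on a log axis, for the 6 Siglec genes (left of the grey line) and *Cd22* and *Siglech* (right), in infarcts (red, n = 3) and contralateral cortices (blue, n = 3). Circles, squares and triangles are libraries 1, 2 and 3, black bars are means, and open symbols on the dotted line are 0 counts; *Siglec1* is 23.8-fold higher in infarcts on this scale, *Cd33* 2.71-fold higher in contralateral cortices, and *Siglece* and *Siglecf* overlap.

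The other 3 mouse Siglec genes, which were not among the 6, could be tested, and 1 of 3 was called, against 46.6% of all tested genes. *Cd22*, the ITIM receptor of B cells, gave 753, 467, and 485 counts in the infarct libraries 1 to 3 and 2, 0, and 2 in the contralateral libraries 1 to 3. It rose in infarcts, with a ratio of scaled summed counts of 473 and a 95% interval of 185 to 1739 (adjusted *p* = 8.9e-07 in edgeR's quasi-likelihood test). Leaving out contralateral library 2 gave a ratio of 313 and leaving out contralateral library 3 a ratio of 720. An antisense gene, *Gm29439*, covers 9.50% of the exons of *Cd22* and had 0 counts in all libraries. Whether the counting used strand is not given in the sources used here, so reads of the pair cannot be told apart in that stretch.

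*Siglech*, a DAP12-coupled receptor of microglia and plasmacytoid dendritic cells, gave 169, 278, and 272 counts in the infarct libraries 1 to 3 and 353, 262, and 176 in the contralateral libraries 1 to 3. Scaled levels were 17.5 ± 3.6 CPM and 17.2 ± 1.11 CPM, the regions overlapped, and the log2 fold change was 0.02 with an SE of 0.19 (adjusted *p* = 0.937, edgeR). It turned negative without infarct library 2 (-0.088), infarct library 3 (-0.012), or contralateral library 3 (-0.023). Set against the 7 markers, *Siglech* was 12.8 ± 4.3 per 1000 in infarcts and 104 ± 16.7 in contralateral cortices, a mean ratio 8.14-fold higher in contralateral cortices, or 39.97-fold higher with *Lyz2* in the sum. *Mag*, the Siglec of myelin, gave 785, 883, and 1262 counts in the infarct libraries 1 to 3 and 740, 758, and 438 in the contralateral libraries 1 to 3. Every scaled infarct value was above every contralateral value, at 71.2 ± 13 CPM against 42.8 ± 5.74 CPM. The log2 fold change of *Mag* was 0.73 with an SE of 0.18 (adjusted *p* = 0.0045, edgeR), below the fold change of 2 required for a call.

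The 4 genes on chromosome 7 shared a neighborhood that did not move as a block. From the start of *Siglecf* to the end of *Siglece* the annotation lists 17 genes over 308.821 kb, 13 of them other than Siglec genes. Of those 13, 6 passed the filter, and 3 of these rose, 1 fell, and 2 were not called, where 25.7% of all tested genes rose and 20.9% fell. The neighbors were chosen for their position after the values of the Siglec genes were seen. *Nkg7*, a granule protein gene of cytotoxic lymphocytes between *Siglecg* and *Cd33*, gave 232, 103, and 76 counts in the infarct libraries 1 to 3 and 1, 0, and 1 in the contralateral libraries 1 to 3. *Etfb*, a mitochondrial electron carrier, and *Vsig10l* rose by less, with log2 fold changes of 1.23 and 1.2. *Iglon5*, a neuronal adhesion gene between *Siglecg* and *Cd33*, fell by 1.07 on the log2 scale.

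**Figure D4:**
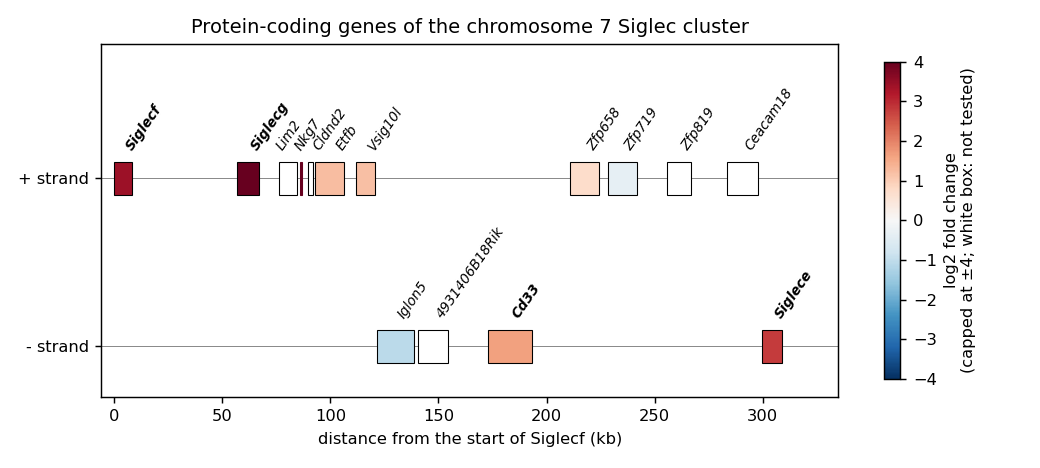
Protein-coding genes from *Siglecf* to *Siglece* by distance from the start of *Siglecf* in kilobases, in rows by strand, with the Siglec genes in bold. Color is the log2 fold change of infarct over contralateral cortex, capped at 4 in either direction (*Siglecg* and *Nkg7*, with almost no contralateral reads, lie beyond it), and white boxes did not pass the filter; genes that rose, fell and were not called lie between the Siglec genes.

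Genes with the profile nearest to each Siglec gene over the 6 libraries were found by the root mean square difference of log2(CPM + 0.5), each gene centered on its own mean, among 14974 genes. Nearest to *Siglec1* were *Ms4a7*, a gene of border macrophages, at 0.15, *Acp5*, the acid phosphatase of osteoclasts and macrophages, at 0.16, and *Anxa1* at 0.18. *Ms4a7* gave 2018, 1705, and 1596 counts in the infarct libraries 1 to 3 and 12, 6, and 7 in the contralateral libraries 1 to 3, much like *Siglec1* itself. Nearest to *Cd33* were *Tmem189* at 0.062, *Vasn* at 0.072, and *Ralb* at 0.073. Nearest to *Siglece* were *As3mt* at 0.11, *Adh7* at 0.12, and *Aldh3a1* at 0.13, the last with 44, 25, and 48 counts in infarcts and thus the same dip in infarct 2. Nearest to *Siglecf* were *Adamts14* at 0.11, *Heyl* at 0.12, and *Egr2* at 0.13. Nearest to *Siglecg* were *C1qtnf6* at 0.078, *Selp* at 0.095, and *Lrrn4cl* at 0.099. The 0.5 CPM added to each value exceeds the mean contralateral levels of *Siglecg*, *Siglece*, and *Siglecf*, so it narrows their differences between regions here. In contralateral cortices 1 to 3, *C1qtnf6* gave 80, 67, and 42 counts and *Lrrn4cl* 22, 13, and 12. *Selp* gave 0, 1, and 0 there, near the 0 of *Siglecg*. Nearness to these 3 Siglec genes therefore need not mean a similar fold change. The 5 Siglec genes shared no gene among these neighbors.

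Downstream of the receptors, 6 of 8 signaling partners rose, 0 fell, and 2 were not called, with a median log2 fold change of 4.0. Over all tested genes, 25.7% rose and 20.9% fell. *Tyrobp*, which encodes DAP12, gave 937, 675, and 728 counts in the infarct libraries 1 to 3 and 38, 35, and 23 in the contralateral libraries 1 to 3, for a log2 fold change of 4.76 with an SE of 0.24 (adjusted *p* = 3.3e-07, edgeR). *Ptpn6*, which encodes SHP-1, gave 827, 661, and 648 counts in the infarct libraries and 54, 22, and 24 in the contralateral libraries, for a log2 fold change of 4.60 with an SE of 0.28 (adjusted *p* = 8.5e-07, edgeR). The related phosphatase SHP-2 showed another pattern. Its gene, *Ptpn11*, gave 3411, 3227, and 3689 counts in the infarct libraries and 3846, 3567, and 2627 in the contralateral libraries, with a log2 fold change of 0.17 and an SE of 0.15 (adjusted *p* = 0.323, edgeR). *Syk*, the kinase recruited by DAP12, rose by 5.28 on the log2 scale, *Inpp5d*, the lipid phosphatase SHIP-1, by 2.83, and *Socs3*, which is known to target CD33-related Siglecs for degradation, by 3.44. *Hcst*, which encodes the adaptor DAP10, was at 34, 38, and 23 counts in the infarct libraries and 0, 1, and 3 in the contralateral libraries. *Cbl*, a ubiquitin ligase, was not called, at 1486, 542, and 1020 counts in infarcts, with a log2 fold change of 0.80 (adjusted *p* = 0.0782, edgeR). Without infarct library 2 it was called, at 1.13.

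Among sialylated proteins that Siglecs are known to bind, 4 of 4 tested genes rose, against 25.7% of all tested genes. Their median log2 fold change was 5.45, and *Muc1* did not pass the filter. *Cd24a*, which encodes the partner of Siglec-G, gave 652, 418, and 639 counts in the infarct libraries 1 to 3 and 27, 29, and 25 in the contralateral libraries 1 to 3, for a log2 fold change of 4.52 with an SE of 0.28. *Spn*, the CD43 sialomucin that sialoadhesin binds, gave 394, 261, and 189 counts in the infarct libraries and 2, 0, and 2 in the contralateral libraries, a ratio of scaled sums of 234 with a 95% interval of 91.2 to 862. *Selplg*, another sialomucin of leukocytes, rose by 1.78 on the log2 scale. *Cd52*, a small glycoprotein of lymphocytes, gave 185, 118, and 96 counts in the infarct libraries and 1, 2, and 2 in the contralateral libraries. Leaving out contralateral library 2 lowered the ratio of *Spn* to 155, and leaving out library 3 raised it to 357.

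The enzymes that attach sialic acid moved in both directions. Of 20 sialyltransferases, 19 passed the filter, 7 rose, 6 fell, and 6 were not called, with a median log2 fold change of 0.23. All tested genes moved in both directions too, with 25.7% called higher and 20.9% lower. *St6gal1*, which makes the α2,6-linked sialic acid that CD22 prefers, gave 2250, 1605, and 1509 counts in the infarct libraries 1 to 3 and 257, 259, and 194 in the contralateral libraries 1 to 3, for a log2 fold change of 3.06 with an SE of 0.24. Its relative *St6gal2* went the other way, at 99, 194, and 334 counts in the infarct libraries and 4202, 3154, and 2007 in the contralateral libraries, or -3.76 on the log2 scale with an SE of 0.36. The other genes that rose were *St3gal1*, *St6galnac2*, *St6galnac4*, *St8sia2*, *St8sia4*, and *St8sia6*, between 1.11 and 2.69 on the log2 scale. *St3gal5*, the GM3 synthase that starts ganglioside synthesis, fell by 2.20 on the log2 scale, and *St8sia1*, *St8sia3*, *St8sia5*, and *St6galnac6* fell by 2.0, 2.69, 2.76, and 1.03. The calls of *St6galnac2* and *St6galnac6*, near the fold change threshold, did not hold in every setting. *St6galnac2* was at 0.90 without infarct library 2 and 0.95 without contralateral library 2, and *St6galnac6* at -0.96 without infarct library 1, -0.98 without infarct library 2, -0.97 without contralateral library 3, and -0.83 with libraries scaled by their totals. *St6galnac5* was not called, at 162, 225, and 965 counts in infarcts, and without infarct library 3 its log2 fold change was -2.26 in place of -1.16. Infarct 3 also had the highest summed level of neuron markers, and the part of neuronal RNA in these values was not tested.

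Genes for synthesis and removal of sialic acid were called in part, where 25.7% of all tested genes rose and 20.9% fell. Of 6 synthesis genes, 5 passed the filter, 2 rose, and 0 fell, with a median log2 fold change of 0.73. *Gne*, the enzyme that starts the pathway, was at -0.14 on the log2 scale with an SE of 0.16 (adjusted *p* = 0.447, edgeR). *Nans*, the synthase, rose by 1.71 on the log2 scale. *Cmah*, which hydroxylates the sugar of CMP-sialic acid to the form CD22 of the mouse prefers, gave 756, 515, and 301 counts in the infarct libraries 1 to 3 and 1, 2, and 5 in the contralateral libraries 1 to 3, for a log2 fold change of 7.71 with an SE of 0.67 (adjusted *p* = 3.1e-05, edgeR). Of 9 genes for removal and modification, 2 rose, 1 fell, and 6 were not called, with a median of 0.76; without infarct library 2 or without infarct library 3, 4 rose. *Ctsa*, the lysosomal partner of the sialidase NEU1, rose by 2.85 and *Npl*, which breaks free sialic acid down, by 2.32 on the log2 scale. *Neu1* itself was at 0.10 with an SE of 0.14 (adjusted *p* = 0.573, edgeR). *Neu2*, a cytosolic sialidase, fell from 76, 78, and 50 counts in contralateral cortices to 2, 7, and 9 counts in infarcts.

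**Figure D5:**
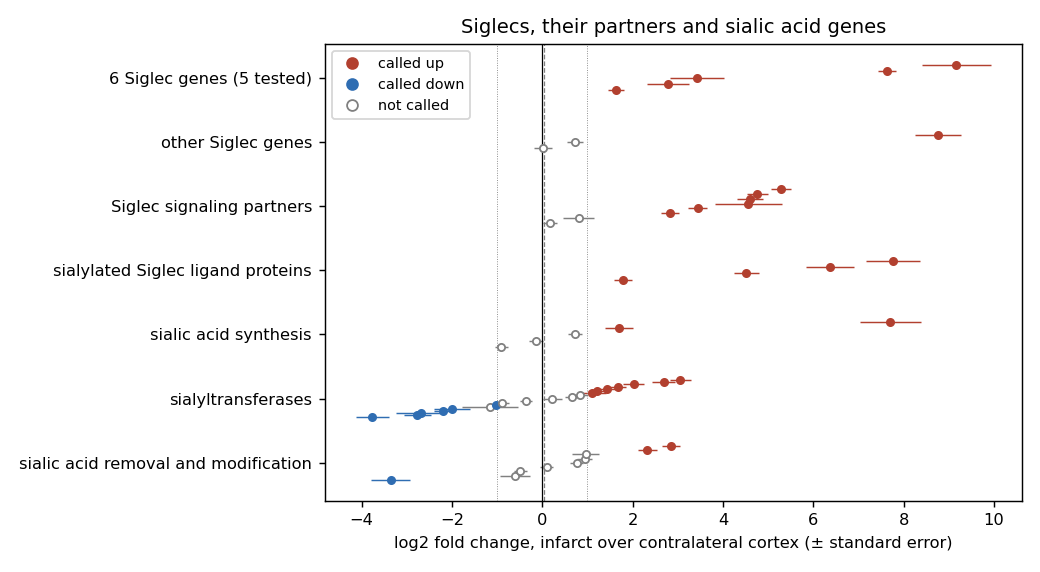
Log2 fold changes of infarct over contralateral cortex with their standard errors, for the Siglec genes and the lists of partners, ligands and sialic acid genes, with 3 libraries per region. Filled points were called and open points not; dotted lines mark a fold change of 2 and the dashed line the median of all genes (0.03). Values of genes with almost no contralateral reads, such as *Siglecg*, *Cd22* and *Spn*, depend on the fit; sialyltransferases spread to both sides, whereas 6 of 8 partners lie at 2.83 or above.

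Markers of cell types in which these Siglecs are known also moved with the region, and their part in the Siglec values was not tested. For every count of markers that follows, the shares over all tested genes were 25.7% higher and 20.9% lower. Several of these markers, such as *Cd68* and *Cd79a*, were named by the study from these same libraries. For *Siglec1*, 7 of 8 border macrophage markers rose, with a median log2 fold change of 2.15 and a summed level of 263 to 464 CPM in infarcts against 26.6 to 32 CPM in contralateral cortices. Without contralateral library 1 or without contralateral library 2, 6 rose, since *Cbr2* lost its call (adjusted *p* = 0.0526 and 0.0618, edgeR). The border marker *Cd163* was not called, at 0.46 (adjusted *p* = 0.228, edgeR). Of 10 interferon-stimulated genes, a class to which *Siglec1* is known to belong, 10 rose, with a median of 4.66 and a summed level of 408 to 695 CPM against 19.9 to 26.3 CPM. *Irf7*, for one, gave 286, 228, and 305 counts in the infarct libraries and 6, 2, and 2 in the contralateral libraries, and *Rsad2* 2670, 1178, and 2683 counts in infarcts, where infarct 2 was low.

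Homeostatic microglia markers, beside which *Siglech* is usually read, moved less. Of 6, 2 rose and 4 were not called, with a median log2 fold change of 0.85 and a summed level of 603 to 646 CPM in infarcts against 216 to 235 CPM in contralateral tissue. *P2ry12*, a defining microglial receptor, was at -0.20 with an SE of 0.17 (adjusted *p* = 0.32, edgeR), near *Siglech* at 0.02.

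For *Siglecf*, the granule genes of eosinophils did not move alike. *Epx* gave 1, 0, and 3 counts in the infarct libraries and 3, 5, and 4 in the contralateral libraries, *Ear1* and *Ear6* gave 0 in all libraries, and *Prg2* gave 40, 10, and 3 counts in infarcts 1 to 3 against 0, 0, and 1 in contralateral cortices 1 to 3, below the filter but above the count of *Siglecf* in infarct 1. Of 8 eosinophil markers, 2 passed the filter and both rose, and 4 rose without contralateral library 1, 2, or 3, each taken alone. They were *Ear2*, with 85, 109, and 147 counts in infarcts and 0 in contralateral cortices, and *Ccr3*, with 12, 45, and 41 counts in infarcts and 0, 3, and 3 in contralateral cortices. The summed level of the 8 was 11.9 to 15.1 CPM in infarcts against 0.157 to 0.738 CPM in contralateral tissue. For *Siglece*, 3 of 8 neutrophil markers passed the filter and rose, among them *S100a8* with 120, 118, and 91 counts in infarcts, while *Elane* gave 0 counts in all libraries and *Ly6g* 0, 2, and 0 in infarcts. The summed neutrophil level was 11.6 to 18.3 CPM against 0.104 to 0.738 CPM.

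For *Siglecg* and *Cd22*, 8 of 8 B cell markers rose, with a median log2 fold change of 7.93, or 6.82 with the 2 genes at 0 in all contralateral cortices set to their lower bounds. *Ms4a1*, a membrane protein gene of B cells, gave 2061, 968, and 838 counts in infarcts 1 to 3 and 0, 3, and 4 in contralateral cortices 1 to 3. Infarct 1 was highest for *Ms4a1* and for *Cd22*, but it was the lowest infarct for *Siglecg*. The summed B cell level was 141 to 320 CPM in infarcts against 2.15 to 3.81 CPM in contralateral tissue. For *Siglec15*, 5 of 6 tested osteoclast markers rose and *Oscar* fell, with a summed level of 755 to 903 CPM against 6.42 to 10.1 CPM. In infarcts *Atp6v0d2* alone gave 423 to 644 CPM of this sum, and *Acp5*, also on the list, is known from macrophages as well. The defining osteoclast receptor *Calcr* gave 1, 0, and 0 counts in infarcts, and *Siglec15* stayed at 1, 1, and 5 counts. For *Siglech*, 3 of 3 tested markers of plasmacytoid dendritic cells rose, at 19.1 to 53.2 CPM against 0.521 to 1.11 CPM in sum, of which *Spib* and *Ly6d* are also known from B cells.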

How the data were processed

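Libraries from 3 infarcts and 3 contralateral cortices, taken 7 weeks after stroke, were compared. Per the study's methods and the submitters' processing notes, the authors prepared stranded mRNA libraries, sequenced paired 75 base reads, demultiplexed them with bcl2fastq 2.19, trimmed adaptors with Trimmomatic 0.32, and aligned them to GRCm38 with STAR 2.5.2b. The deposited values are raw counts per Ensembl gene from htseq-count, without normalization. Its version, annotation, and strand setting are not given in the sources used here. The 5 entries that name no gene (26.6% to 34.3% of all entries' counts per library) were left out. Of 46078 identifiers, 45229 matched GENCODE M21.

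The test was edgeR 4.0.16 (R 4.3.3): filterByExpr by region, TMM scaling, and a robust quasi-likelihood test with region as its only term, Benjamini-Hochberg adjustment over 15554 genes (biological coefficient of variation 0.220), and calls at adjusted *p* under 0.05 and more than a 2-fold change. Each SE was computed as the absolute log2 fold change divided by the square root of the F statistic of the quasi-likelihood test. A fold against a region at 0 counts was computed with 3 counts in each of its libraries. Ratios of summed counts carry 95% exact binomial intervals of the counting error. Summaries used SciPy 1.17.1 and pandas 2.3.3 under Python 3.11.15. Fitting was tested on simulated data. The alternatives were DESeq2 1.42.0, RLE size factors, library totals, no filter, the replicate number as a block, and each library left out.

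The Siglec genes, gene lists, and tests were chosen with earlier results of these data known. All 9 mouse Siglec genes are named. Lists of up to 10 genes may be named in full, of the sialyltransferases those called, and for each tested Siglec gene the 3 nearest profiles among genes averaging at least 10 counts in infarcts. *St6galnac5*, *Nkg7*, *Etfb*, *Vsig10l*, and *Iglon5* fall outside this rule, chosen once their values had been seen. Promoter sequences and starts are those of RefSeq on GRCm38.p6, from which windows of 4 of the 6 genes were taken.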

Additional observations from a re-analysis of the deposited data

How the results depend on the processing

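The 5 tested Siglec genes were called higher in infarcts under each of the 11 alternatives. *Siglec1* moved to 7.83 with library totals, which shifted the median of all genes by 0.20, and *Siglecg* to 8.64 with DESeq2. Leaving out 1 library at a time gave log2 fold changes of 7.51 to 7.73 for *Siglec1*, 1.55 to 1.74 for *Cd33*, 2.55 to 3.06 for *Siglece*, and 2.95 to 4.37 for *Siglecf*. That of *Siglech* ranged from -0.088 to 0.19, so it had no fixed direction: it was -0.088 without infarct library 2, -0.012 without infarct library 3, and -0.023 without contralateral library 3. With library totals *Gne* turned to 0.058 and *P2ry12* to 0.0054, and 4 genes of sialic acid removal and modification were called higher in place of 2 (2 to 4 with 1 library left out). Of eosinophil markers, 5 were called higher with DESeq2 and 5 without a filter in place of 2 (2 to 4 with 1 library left out), and of neutrophil markers 6 with DESeq2 and 6 without a filter in place of 3; without a filter more low genes were tested, and for DESeq2 the cause was not tested. Over all genes, 4434 rose and 3550 fell with DESeq2, 4528 and 2766 with library totals, and 4661 and 3619 without a filter.

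Same-numbered libraries did not deviate together (correlations of -0.19, 0.10, and 0.0011), and 0 of 3 infarcts correlated best with its own number. With the replicate number as a block, 3945 genes rose and 3222 fell, and *St6galnac5* was called at -1.56. The block changed no other call among the 115 tested genes that are Siglec genes or on the lists. The chromosome 7 neighbors and the nearest profiles were not examined under the alternatives, unless they are also on a list. Depth limits *Siglec15* and the contralateral values of *Siglecf* and *Siglecg*, where 3 counts equal 0.157 to 0.277 CPM.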
